A study of Mus musculus with 4 samples.

Results

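The switch of spermatogonia from the stem cell state to differentiation involves genes of germ cells and of the somatic cells around them, and 7 of these were followed here among the 32285 genes measured. They were chosen by symbol: Stra8, Kit, Kitl, Sohlh1, Sohlh2, Dmrt1 and Neurog3, each with 1 row in the tables. The cells came from primary spermatogonial cultures of mice, started from 3 male pups at postnatal day 6. Thy1+ cells, selected on magnetic columns, were grown on STO cells, a mouse embryonic fibroblast line that served as the feeder layer in all groups. The vehicle group (2 libraries) received PBS, and the EV group (2 libraries) received testis extracellular vesicles of mice at postnatal day 7, at a dose of 1 μg/mL, and both treatments lasted 3 days. Each vesicle batch was drawn from several C57BL/6 mice, and the strain of the pups and any genotype are not given in the sources used here. All cultures thus share the Thy1 selection and the feeder layer, and Sertoli cells, the natural source of KITL, are not part of the design. Counts were used from vehicle 1, vehicle 2 and EV 1, and the expression of EV 2 was not analysed here. The EV group therefore had 1 library, so a difference between the groups has no replicate check and no test was made of it.

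In the testis, retinoic acid drives undifferentiated spermatogonia into differentiation. Stra8 is a retinoic acid target needed for meiotic entry, and Kit encodes the receptor tyrosine kinase that marks differentiating spermatogonia. Its ligand KITL (stem cell factor) is made by somatic cells, mainly Sertoli cells. Sohlh1 and Sohlh2 encode basic helix-loop-helix factors required for spermatogonial differentiation, Dmrt1 encodes a DM-domain factor that holds back Stra8 and meiosis in mitotic spermatogonia, and Neurog3 marks undifferentiated progenitors.

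DNA near the start was read for 2 members, Stra8 because it was the germ cell member that differed most between EV 1 and the vehicle libraries, and Sohlh1 because its product belongs to a family of factors that bind E-boxes. RefSeq promoters (GRCm38.p6) matched 6 of the 7 members by symbol. The 250 bases before the RefSeq start were searched, on the gene's own strand and 5′ to 3′. Capitals mark AGGTCA on either strand in Stra8, the half-site bound by retinoic acid receptors among other nuclear receptors, and CACGTG, an E-box, in Sohlh1. The Stra8 window lies at chr6:34920698-34920947 on the plus strand. It is upstream of 3 of the 4 GENCODE vM21 transcripts of the gene but inside the span of the other. Only the 2 marked sites are therefore given, each in 30 bases, at chr6:34920742-34920771 and chr6:34920898-34920927. The Sohlh1 stretch is the whole window, at chr2:25847249-25847498 on the minus strand, and ends at the base before the gene.
Stra8, site 1: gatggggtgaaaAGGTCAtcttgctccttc
Stra8, site 2: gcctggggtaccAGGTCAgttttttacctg
Sohlh1: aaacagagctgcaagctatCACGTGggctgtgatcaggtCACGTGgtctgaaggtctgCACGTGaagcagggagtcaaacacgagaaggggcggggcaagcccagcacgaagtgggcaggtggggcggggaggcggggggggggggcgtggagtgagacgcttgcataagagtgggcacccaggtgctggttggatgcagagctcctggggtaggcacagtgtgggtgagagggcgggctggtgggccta
Stra8 held 2 AGGTCA half-sites, and 1.36% of all 32851 promoters of this length held at least 2. Sohlh1 held 3 CACGTG E-boxes, and 0.0609% of all promoters held at least 3. These 3 are among the 5 matches of Sohlh1 to the wider E-box CANNTG, which was found at least once in 66.2% of promoters. Sohlh1 also held 1 AGGTCA, which overlaps an E-box and is not marked, and 14.0% of promoters held at least 1. None of the windows of Kit and Kitl held any of the 3 motifs, while Sohlh2 and Neurog3 held 1 CANNTG each and neither of the others. A match of letters is not evidence of binding.

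In the GENCODE vM21 annotation of GRCm38, Stra8 spans chr6:34920163-34939344, Kit chr5:75574916-75656722, Sohlh1 chr2:25842995-25847248 and Sohlh2 chr3:55182028-55209957. Kitl spans chr10:100015630-100100416, Neurog3 chr10:62133090-62134763 and Dmrt1 chr19:25505618-25604329. All are on the plus strand except Sohlh1. UMIs (unique molecular identifiers, 1 per captured RNA molecule) were counted per gene, so that the values below are for the whole gene and not for a promoter or isoform.

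Total UMIs were 23686047 in vehicle 1, 27444797 in vehicle 2 and 10793232 in EV 1. A cell was called germ when its UMIs of Dazl, Tex15, Stk31 and Epcam numbered at least 2 and exceeded those of the collagen and matrix genes Col1a1, Col1a2, Sparc and Dcn, and feeder in the reverse case. No member enters this rule. Germ cells numbered 4411, 4783 and 227 in vehicle 1, vehicle 2 and EV 1, or 53.4%, 55.4% and 4.75% of the cells kept, and feeder cells 2357, 2473 and 2508. The remaining 18.1%, 16.0% and 42.8% of cells met neither rule. EV 1 thus stands apart in its makeup. The germ class need not hold all germ cells of EV 1. When cells were clustered by their transcripts, cluster 0 held most germ cells, and it numbered 5182, 5438 and 402 cells. Of the Dmrt1 UMIs, 8.27%, 6.06% and 32.0% lay in cells of neither class, and of the Kit UMIs 9.52%, 5.98% and 40.9%. Germ cells from EV 1 were also shallower, with a median of 1322 UMIs against 1936 and 2091. At most 22 cell barcodes were shared by any pair of libraries.

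Which culture compartment carried each member was asked first, within the vehicle libraries. Stra8, Kit, Sohlh1, Sohlh2 and Dmrt1 were transcripts of the germ cells, and Kitl was a transcript of the feeder cells. Levels are given as CPM, the UMIs of a gene scaled to a class total of 1000000. Stra8 was at 174 CPM in germ cells of vehicle 1 and 172 CPM in those of vehicle 2, against 28 and 30 UMIs in all feeder cells. Kitl was at 89.2 and 92.8 CPM in feeder cells and at 6.46 and 5.36 CPM in germ cells. edgeR's quasi-likelihood test on the summed UMIs of the 2 vehicle libraries, 2 sums against 2, gave a log2 difference (germ minus feeder) of 5.52 (SE 0.11) for Stra8, with an adjusted p of 1.16e-24. The difference was 5.56 for Dmrt1, 5.41 for Sohlh2, 4.95 for Kit and 4.57 for Sohlh1, and for Kitl it was -4.35 (SE 0.10), with an edgeR adjusted p of 1.99e-23. The classes differ in many genes, with 42.8% of 16441 genes tested higher in germ and 42.8% higher in feeder cells, so that passing the test is common and the sizes carry the contrast. The sample titles call the 2 vehicle libraries biological replicates, and p-values measure the spread between them.

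**Figure D1:**
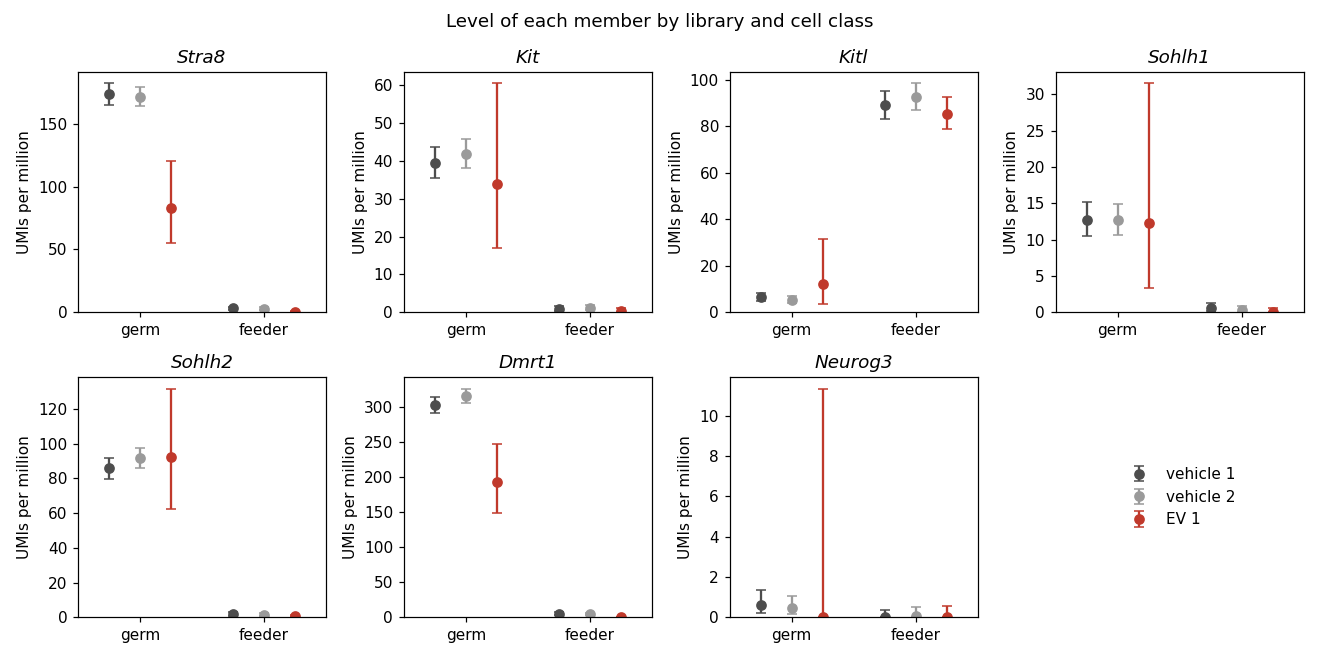
Level of each member in CPM of the class (y axes, linear, 1 scale per gene), for germ and feeder cells of vehicle 1 (dark grey), vehicle 2 (light grey) and EV 1 (red), with exact 95% Poisson intervals. Stra8 and Dmrt1 lie lower in germ cells of EV 1, at 83.1 and 194 CPM, while Kitl in feeder cells lies between 85.5 and 92.8 CPM in all 3 libraries.

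What feeder cells held of the germ members was close to what they held of other germ transcripts. The markers Ddx4, Dnd1, Mael and Tdrd5, which are not in the class rule, stood in feeder cells at 2.61% and 1.90% of their germ level in vehicle 1 and vehicle 2. The summed UMIs of the 6 members other than Kitl stood at 1.87% and 1.61%. In EV 1, where few germ cells were present, both fell to 0.392% and 0.390%. The traces were uneven. The 89 feeder cells of vehicle 1 assigned to S phase held Stra8 at 27.7 CPM and Dmrt1 at 24.6 CPM, from 9 and 8 UMIs, against 1.52 and 3.85 CPM in feeder cells assigned to G1. In vehicle 2 the S-phase feeder cells held Stra8 at 13.6 and Dmrt1 at 8.18 CPM, from 5 and 3 UMIs, against 2.05 and 3.48 CPM, and the interval of Dmrt1, 1.69 to 23.9 CPM, holds the level in G1. Feeder cells assigned to G2/M held Dmrt1 at 16.3 and 19.2 CPM in vehicle 1 and vehicle 2, from 11 and 12 UMIs. They held Stra8 at 8.92 and 8.01 CPM, from 6 and 5 UMIs, and all 4 intervals lay above the level in G1. Without doublet removal the germ minus feeder difference of Dmrt1 was 4.74 in place of 5.56. No expression by the feeder cells is read from these traces, and the parts of free RNA and of mixed droplets in them were not told apart. Kitl in germ cells stood at 7.24% and 5.77% of its feeder level, below the 12.4% and 11.0% of the collagens and fibronectin outside the rule, and no expression by germ cells is read from it.

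The transcription factors of the set differed widely in level within germ cells. Dmrt1 was the highest, at 303 CPM in vehicle 1 and 316 CPM in vehicle 2, from 2864 and 3484 UMIs. Sohlh2 was at 85.8 and 91.7 CPM, and its partner Sohlh1 at 12.7 and 12.6 CPM, from 120 and 139 UMIs. Kit, the receptor, was at 39.4 and 41.8 CPM. For each of these members the 95% counting intervals of the vehicle libraries overlapped. These orders are of captured 3′ ends, and differences between genes can also come from capture. Neurog3 had 6 and 5 UMIs in the germ cells of vehicle 1 and vehicle 2 and 0 in EV 1. A count of 0 is taken to allow up to 3 UMIs, or 9.23 CPM, well above the 0.635 and 0.454 CPM of the vehicle libraries. A fall, or a rise that stays under this limit, could thus not have been detected, and a rise above it was not seen.

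The comparison of EV-treated with vehicle cultures asks whether the vesicles moved the differentiation program. Among germ cells, Stra8 was lower in EV 1, while the ratio of Sohlh2 was near 1 and those of Kit and Sohlh1 had wide intervals on both sides of 1. Stra8 had 1642 UMIs in vehicle 1, 1893 in vehicle 2 and 27 in EV 1, or 174, 172 and 83.1 CPM. EV 1 lay outside both vehicle libraries, whose mean was 173 ± 1.39 CPM (SD, n = 2). The log2 ratio of EV 1 to that mean was -1.03, and the ratio to the pooled vehicle libraries was 0.481, with a 95% interval of 0.316 to 0.701. This interval, like all intervals here, covers counting error only and not the difference between cultures. Of 13365 genes with enough UMIs, 6.94% were at least 2-fold lower in EV 1 by the same rule and 11.5% were at least 2-fold higher, so a 2-fold step in germ cells was not rare. With a stricter germ class, which asked for more UMIs of the class markers, the log2 ratio of Stra8 was -0.67 and did not reach 2-fold.

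Dmrt1 was next, with 63 UMIs in EV 1 and 194 CPM against 303 and 316 CPM. Its ratio was 0.625, with an interval of 0.479 to 0.80, and its log2 ratio of -0.67 did not reach 2-fold. Stra8 and Dmrt1, a gene that represses it, were thus both lower in these 227 cells. Kit had 11 UMIs in EV 1, or 33.8 CPM against 39.4 and 41.8 CPM, with a ratio of 0.832. Its interval of 0.414 to 1.5 holds the ratio of Stra8 as well as 1, so the depth of EV 1 does not separate Kit from either. Under the stricter class its log2 ratio of -0.20 turned to 0.33.

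Sohlh2, with the most UMIs in EV 1 after Dmrt1, showed no such step. It had 30 UMIs in EV 1, or 92.3 CPM against 85.8 and 91.7 CPM, with a ratio of 1.04 and an interval of 0.698 to 1.49. Sohlh1 rested on 4 UMIs in EV 1, at 12.3 CPM, with an interval of 0.263 to 2.52 for a ratio of 0.972, which holds the ratio of Stra8 as well as 1. Among the same germ cells Stra8 yielded 2.03 and 1.87 UMIs for each Sohlh2 UMI in the vehicle libraries and 0.900 in EV 1. This ratio does not depend on the total of the class.

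**Figure D2:**
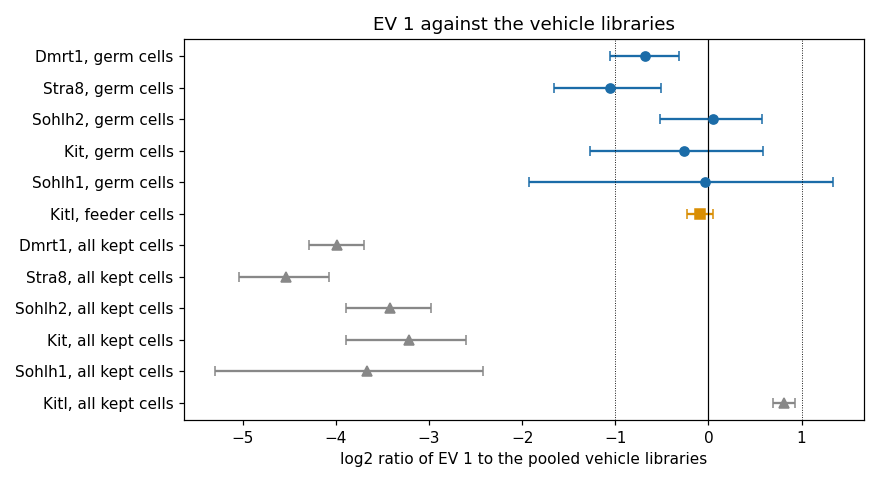
Log2 ratio of EV 1 to the pooled vehicle libraries (x axis) with exact 95% counting intervals, for members in germ cells (blue circles), Kitl in feeder cells (orange squares) and all members with enough UMIs over all kept cells (grey triangles); dotted lines mark 2-fold. Only the intervals of Stra8 and Dmrt1 leave 0 among germ cells, and every germ member is far to the left over all kept cells.

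Some values that moved with EV 1 stand beside these results. The 4 germ markers outside the class rule summed to 344, 347 and 338 CPM in germ cells, with Ddx4 higher and Dnd1 lower in EV 1 beyond their counting intervals. The 14 fibroblast markers, of which 12 had enough UMIs, summed to 365, 311 and 505 CPM there, and those outside the rule stood at 19.7% of their feeder level in EV 1. That feeder RNA in germ cells, the shallower cells and the small number of germ cells all went with the EV library, and their part in the levels of Stra8 and Dmrt1 was not tested. The culture, the library and the treatment cannot be told apart with 1 EV library.

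Kitl, the ligand gene, stayed close to the vehicle level in the cells that express it. Kitl had 853 UMIs in the feeder cells of vehicle 1, 998 in those of vehicle 2 and 580 in those of EV 1, or 89.2, 92.8 and 85.5 CPM. The ratio of EV 1 to the pooled vehicle libraries was 0.938, with an interval of 0.853 to 1.03 and the vehicle mean was 91.0 ± 2.52 CPM (SD, n = 2). In feeder cells 4.90% of 12877 genes were at least 2-fold lower and 2.42% higher. In germ cells Kitl had 4 UMIs in EV 1, or 12.3 CPM, a log2 ratio of 1.22 that passes the 2-fold rule. Its ratio interval of 0.563 to 5.51 holds 1, and the level was 14.4% of that in feeder cells, under the 19.7% of the other feeder transcripts there. Kitl was not even among feeder cells. In the feeder cells of cluster 1, a group of mixed class, it was at 143, 123 and 101 CPM in the 3 libraries, and in cluster 2, which held most feeder cells, at 85.9, 91.4 and 83.6 CPM. The feeder cells also carried Sox9 at 281, 298 and 275 CPM and Rhox5 at 117, 114 and 116 CPM, 2 of the 10 listed genes known from Sertoli cells. Gata4 was at 5.44, 5.49 and 5.90 CPM and Inha at 4.29, 4.46 and 6.49 CPM, both with higher levels in feeder than in germ cells of the vehicle libraries (log2 germ minus feeder -2.80 and -2.02). Wt1 and Cldn11 were higher in germ cells, by 1.64 and 1.98. In feeder cells Wt1 had 13, 10 and 12 UMIs and Amhr2 had 6, 6 and 4, and Amh, Dhh, Cldn11 and Fshr had 0 to 5 UMIs in any library. None of the 4 listed genes with enough UMIs was 2-fold apart in feeder cells of EV 1.

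Over all kept cells, as a measurement on the whole suspension would see them, the germ members were far lower in EV 1. Cells called germ by the rule made up 4.75% of cells there, against 53.4% and 55.4%. Stra8 had a log2 ratio of -4.52, Dmrt1 -3.97, Sohlh1 -3.53, Sohlh2 -3.40 and Kit -3.18, with 21.2% of 16287 genes at least 2-fold lower and 8.18% higher. Kitl was at 48.6, 48.5 and 85.3 CPM, a log2 ratio of 0.81, although its level per feeder cell RNA was nearly the same in all libraries. On bulk material, fewer cells of a type and less RNA of a gene per cell could not be told apart. The median of all genes moved by -0.19 on this scale, by -0.13 in feeder cells and by 0.08 in germ cells.

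How many germ cells carried a member was compared at 1 depth, with each cell thinned to 1000 UMIs. This left 4265, 4671 and 178 germ cells and dropped 146, 112 and 49. Stra8 was found in 14.8% and 15.0% of germ cells from the vehicle libraries and in 9.55% of those from EV 1, with a Wilson interval of 6.05 to 14.8% in EV 1. Without thinning the shares were 27.1%, 28.1% and 10.1%. Dmrt1 was found in 23.9%, 25.5% and 14.0%, and the interval of EV 1, 9.70 to 19.9%, lay below both vehicle shares. Sohlh2 was found in 7.92%, 8.52% and 10.1%, and Kit in 3.92%, 3.83% and 2.81%, where the interval of EV 1 ran from 1.21 to 6.41%. In feeder cells, which should lack these genes, the shares were at most 0.705% for Dmrt1 and 0.331% for Stra8. Of 26 germ cells of EV 1 with at least 2000 UMIs, 7 carried Stra8 at that depth (26.9%, interval 13.7 to 46.1%), against 26.6% and 25.3% in the vehicle libraries. The lower share of Stra8 was thus not seen in the few deepest cells, and the interval there holds values on either side.

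**Figure D3:**
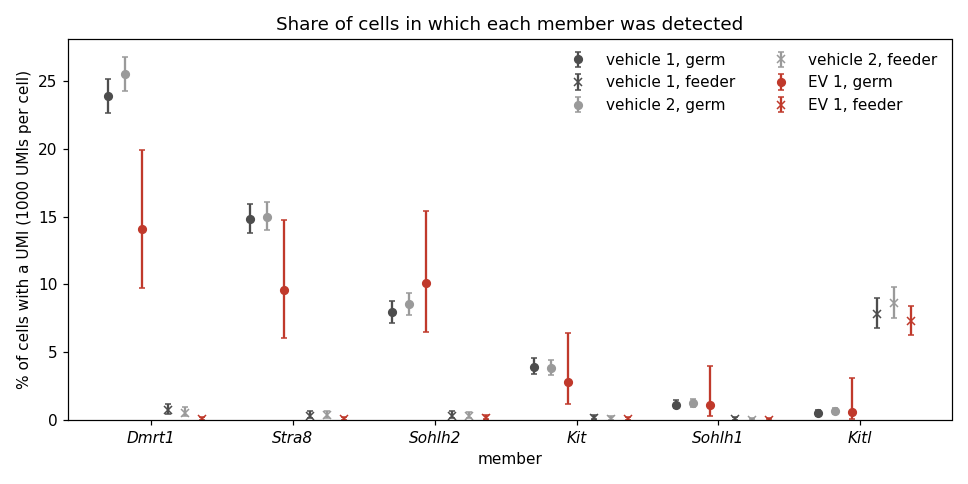
Share of germ (circles) and feeder (crosses) cells with at least 1 UMI of each member after thinning to 1000 UMIs per cell (y axis, %), with 95% Wilson intervals, for vehicle 1, vehicle 2 and EV 1. Dmrt1 falls from 23.9% and 25.5% to 14.0% in germ cells, while Kitl stays between 7.27% and 8.61% in feeder cells.

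Detection of 2 members in 1 cell was uncommon at this depth. Of the germ cells, 42.7%, 43.8% and 33.7% had a UMI of at least 1 of Stra8, Kit, Sohlh1, Sohlh2 and Dmrt1, and 18.0%, 17.8% and 12.4% had a UMI of Stra8 or Kit. A cell with exactly 2 of the 5 was seen in 7.50%, 8.31% and 3.93%, and 1 cell, in vehicle 2, had 4.

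Within the germ cells of the vehicle libraries, cells with a Stra8 UMI differed from cells without one in some genes of both states. Kit was at 55.3 and 74.3 CPM in cells with Stra8 against 38.0 and 34.5 CPM in cells without, a ratio of 1.46 in vehicle 1 (interval 0.974 to 2.12) and 2.15 in vehicle 2 (1.53 to 2.98). Dmrt1 was at 344 and 360 CPM against 278 and 289 CPM, and its ratios of 1.24 and 1.25 had intervals above 1 in both libraries. Sycp3, an element of the meiotic chromosome axis, was at 338 and 386 CPM against 202 and 215 CPM. It alone of the listed genes of differentiation and meiotic entry had intervals above 1 in both libraries. Dnmt3b, Rec8 and Meioc had ratios above 1 in both, with intervals that hold 1. Dnmt3a had ratios of 0.880 and 1.55, Dmc1 of 0.989 and 0.823, and Ccnd2 of 0.977 and 0.860 (0.769 to 0.959 in vehicle 2). Gfra1, the GDNF co-receptor of stem spermatogonia, went the other way, at 123 and 146 CPM in cells with Stra8 against 210 and 220 CPM in cells without. Its ratios were 0.587 (0.459 to 0.741) and 0.664 (0.535 to 0.815). Of the 20 listed genes of undifferentiated spermatogonia, 14 had at least 50 UMIs in vehicle 1 and 13 in vehicle 2. Their ratio was below 1 for 12 in each library, with a median of 0.841 and 0.664, against 50.8% and 50.6% of all genes and medians of 0.998 and 0.997. The interval lay below 1 for 2 in vehicle 1 (Gfra1 and Nanos3) and for 6 in vehicle 2 (Gfra1, Ret, Lhx1, Etv5, Id4 and Sall4), so that Gfra1 alone passed in both. Over all genes 3.19% of 9036 and 3.57% of 9340 had intervals below 1, and 3.43% and 3.19% above 1. Nanos3 turned direction, from 0.217 in vehicle 1 to 2.01 (0.913 to 4.11) in vehicle 2. Sox3 had ratios of 1.10 and 2.07, with an interval of 1.28 to 3.26 in vehicle 2.

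The cells with a Kit UMI, 167 in vehicle 1 and 179 in vehicle 2, gave the same directions for Sycp3 and Gfra1 as the cells with Stra8. For Stra8 itself they show the co-detection with Kit from the other side, and it is no second result. Stra8 was at 240 and 318 CPM in them against 169 and 169 CPM, with ratios of 1.42 (1.00 to 1.95) and 1.89 (1.42 to 2.47). Sycp3 had ratios of 1.48 and 1.44, and Gfra1 of 0.476 and 0.607, each with intervals that leave 1. No other listed gene of differentiation and meiotic entry had an interval above 1 with Kit. Dnmt3a went from 1.67 in vehicle 1 to 0.612 in vehicle 2, and Dmc1 from 1.10 to 0.911. The link of Stra8 and Kit was larger in vehicle 2. The share of cells with Stra8 was 9.0 percentage points higher in cells with Kit than in cells without over both libraries, but 5.12 points without vehicle 2 and 12.9 without vehicle 1. Of the same 14 and 13 undifferentiated genes, 2 (Gfra1 and Lhx1) and 3 (Gfra1, Etv5 and Egr4) had intervals below 1 with Kit, and Sox3 in vehicle 2 had one above 1, beside 1.85% and 1.81% of all genes below 1 and 2.67% and 3.02% above. Pax7, too low to be among them, had an interval above 1 in vehicle 1 from 3 UMIs in cells with Kit. Ccnd2, a cyclin that rises with differentiation in the testis, was lower in these cells, at 407 and 447 CPM against 571 and 615 CPM. Sohlh2 did not go 1 way with Kit, with 7 UMIs and a ratio of 0.487 in vehicle 1 and 21 UMIs and a ratio of 1.30 in vehicle 2. In EV 1 only 17 cells had Stra8 and 5 had Kit at this depth, and none had both. The cells share their library and these values are a description.

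**Figure D4:**
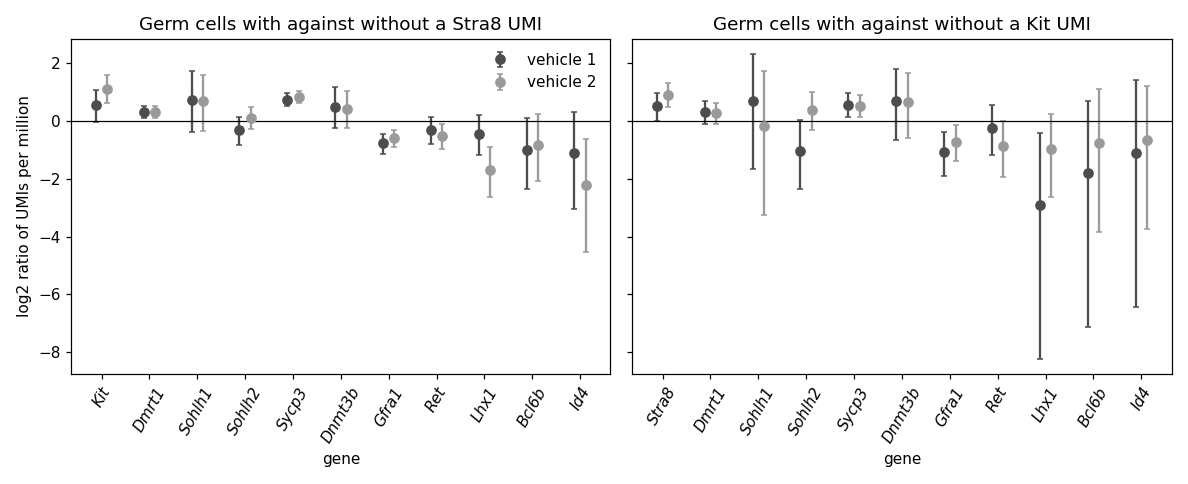
Log2 ratio of CPM in germ cells with against cells without a Stra8 UMI (left) or a Kit UMI (right), for vehicle 1 (dark) and vehicle 2 (light), with exact 95% counting intervals on the y axis and genes on the x axis. The genes shown are a part of the lists. Among those not shown, Sox3 lay above 0 in vehicle 2 and Ccnd2 lay below 0 in cells with Kit. Kit, Stra8, Dmrt1 and Sycp3 lie above 0 and Gfra1 lies below 0 in both libraries. The intervals of Dmrt1 with Kit hold 0 in both libraries, as does that of Kit with Stra8 in vehicle 1.

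Genes were ranked by their ratio between cells with and without a member, taking the lower value of the 2 vehicle libraries over 6550 genes with enough UMIs. For Stra8 the 5 leading genes were Sycp3, Tecpr2, Atp11a, Impad1 and Arl4a, with a log2 ratio (1 UMI added) of 0.75 to 0.66. Kit came at rank 8, Dmrt1 at 160 and Sohlh2 at 5210 in the order for Stra8. For Kit the leading genes were Fras1, Rufy3, Arhgef18, Cip2a and Gm26754, at 1.41 to 1.05, each from 8 to 14 UMIs in the cells with Kit, and Stra8 came at rank 290. For Dmrt1 they were Golga1, Aspm, Hic2, Bcr and Ppp1r15b, at 0.65 to 0.54, and Stra8 came at rank 65. For Kitl in feeder cells, among 3825 genes, they were Areg, Cyld, Braf, Pbx3 and Cspp1, at 1.07 to 0.88. In EV 1 these rested on few cells, and for the 17 cells with Stra8 the counts were 9 UMIs of Sycp3, 2 of Atp11a, 3 of Impad1 and 0 of Tecpr2 and Arl4a.

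Stra8, Kit and Dmrt1 also differed by cell cycle phase, which was scored from genes that include no member. Among germ cells assigned to G2/M and to S, Stra8 was at 194 against 150 CPM in vehicle 1 and at 196 against 147 CPM in vehicle 2. Kit was at 47.7 against 30.3 CPM and at 51.6 against 31.0 CPM, and Dmrt1 at 341 against 263 CPM and at 357 against 276 CPM. edgeR on the 2 vehicle libraries gave log2 differences (G2/M minus S) of 0.73 for Kit (SE 0.11, adjusted p 7.77e-06), 0.42 for Stra8 (SE 0.07, adjusted p 4.39e-05) and 0.40 for Dmrt1 (SE 0.07, adjusted p 4.94e-05). Over all genes, 5.91% of 13977 were higher in G2/M and 4.94% higher in S, or 826 and 691 genes. With the library as a block the numbers were 1364 and 1122, and the same 3 members passed. Sohlh1 and Sohlh2 did not pass, with differences of -0.11 (SE 0.18) and -0.01 (SE 0.08). This comparison was added after the values were seen, and the phase calls come from the same cells. The co-detection of Stra8, Kit and Dmrt1 was not split by phase, and the part of phase in it was not tested. The cells assigned to G1, 132 and 122, were left out of the test, and in them Stra8 was at 184 and 125 CPM, from 37 and 26 UMIs. In EV 1 Stra8 was at 123 CPM in 92 G2/M cells and 64.1 CPM in 108 S cells, from 17 and 10 UMIs.

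**Figure D5:**
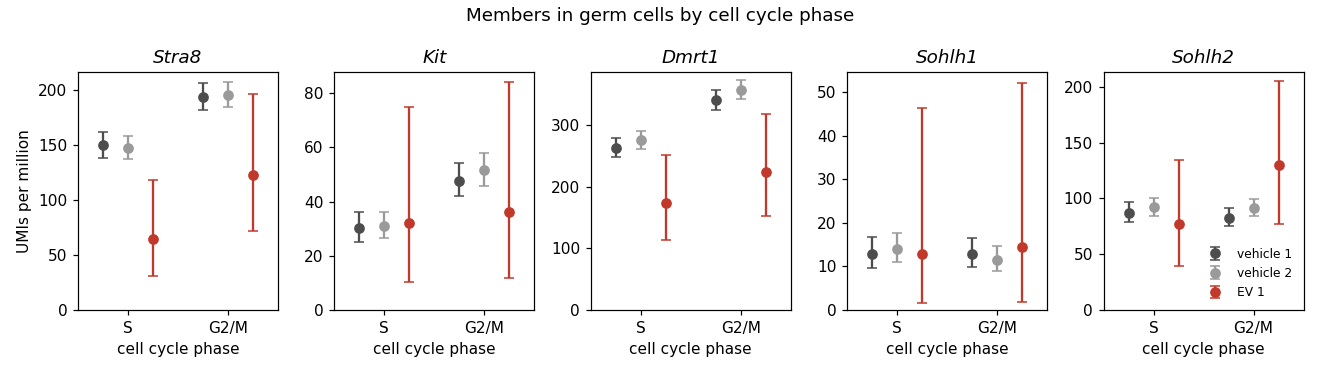
Level of 5 members in germ cells assigned to S and to G2/M (x axis), in CPM (y axis, 1 scale per gene), with exact 95% Poisson intervals, for vehicle 1, vehicle 2 and EV 1. Stra8, Kit and Dmrt1 lie higher in G2/M in both vehicle libraries, whereas Sohlh1 and Sohlh2 do not.

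The other genes of the differentiation switch and of the state before it were read from fixed lists, by the same 2-fold rule in germ cells. Of 18 tested genes of undifferentiated spermatogonia, 4 were lower and 0 higher in EV 1, with a median log2 ratio of -0.48. Over all germ cell genes 6.94% were lower and 11.5% higher, with a median of 0.08. The clearest were Zbtb16, a marker of undifferentiated spermatogonia, at 169, 172 and 46.2 CPM, and Gfra1 at 206, 215 and 98.5 CPM. Their ratios of 0.271 and 0.467 had intervals below 1. With the stricter class Gfra1 had a log2 ratio of -0.83, short of 2-fold. The other pair, Id4 and Eomes, rested on 1 and 0 UMIs in EV 1. Of 10 tested genes of differentiation and meiotic entry, 1 was lower (Dmrtb1, 0 UMIs in EV 1) and 1 higher (Prdm9, 5 UMIs), with a median of -0.37. Sycp3 was the member of that list whose interval left 1, with 2038, 2494 and 130 UMIs and a ratio of 1.81 (1.5 to 2.15). Stra8 and Sycp3, which went together between vehicle cells, thus went opposite ways between EV 1 and the vehicle libraries. Ccnd2 was at 541, 573 and 520.0 CPM and the methyltransferases Dnmt3a and Dnmt3b had ratios of 0.777 and 0.641 with intervals that hold 1.

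Of 10 retinoid genes tested in germ cells, 1 was lower and 1 higher, beside 6.94% and 11.5% of all genes, and the median log2 ratio was -0.40 beside 0.08. The lower was Cyp26a1, the retinoic acid-degrading enzyme, with 37, 30 and 0 UMIs, and at 3.92 and 2.72 CPM it lay under the 3-UMI limit of 9.23 CPM for a count of 0 in EV 1. The higher was Crabp2, a retinoic acid-binding protein, with 34, 33 and 5 UMIs and a ratio of 4.70 (1.48 to 11.5). Crabp1, another binding protein, was at 186, 189 and 126 CPM, and its ratio of 0.672 had an interval of 0.481 to 0.913. The receptor Rara had 197, 245 and 5 UMIs, a ratio of 0.712 whose interval of 0.230 to 1.67 holds 1. In feeder cells 3 of 11 tested retinoid genes were lower and 0 higher, beside 4.90% and 2.42% of all genes. These were Aldh1a1, a retinoic acid-making enzyme, with 110, 131 and 19 UMIs and a ratio of 0.236 (0.140 to 0.377), Stra6, a retinol transporter, with 45, 51 and 10 UMIs, and Crabp1, with 36, 28 and 4. Crabp1 was a germ cell transcript (log2 germ minus feeder 5.49), and its feeder level was 2.02%, 1.38% and 0.467% of its germ level, beside the 2.61%, 1.90% and 0.392% of the germ markers outside the class rule.

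Downstream of KIT, the 35 signalling and shedding genes were all tested in germ cells, where the median log2 ratio was 0.02. Of them 2 were lower (Lyn and Mmp9, with 0 and 1 UMI in EV 1) and 0 higher, beside 6.94% and 11.5% of all genes. Under 2-fold, Stat3 had a ratio of 1.38 (1.04 to 1.81) and Nras of 1.48 (1.01 to 2.09). In feeder cells 2 of 35 were lower, beside 4.90% of all genes. These were Pik3r1, a regulatory subunit of PI3-kinase, at 62.9, 66.4 and 31.8 CPM, and the protease Mmp9, at 13.4, 10.1 and 2.21 CPM. The call of Pik3r1 stood at the 2-fold edge, with a log2 ratio of -1.02 that was -0.89 with TMM factors or DESeq2 size factors. Adam17, a protease that sheds KITL from the cell surface, was at 91.6, 103 and 74.6 CPM in feeder cells. Of the 7 tested partners and relatives of the Sohlh and Dmrt factors, 3 were lower, namely Dmrtb1 and Dmrt2 with 0 UMIs and Dmrt3 with 2, and 1 was higher, Dmrtc2 with 8 UMIs, beside the same 6.94% and 11.5%. No interval of these 4 genes left 1. The E-protein Tcf12, a dimer partner of helix-loop-helix factors, was at 297, 318 and 274 CPM.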

How the data were processed

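The libraries were prepared by the study with the 10x Genomics droplet method. Per the labels, mm10 was the genome and Cell Ranger 7.0.1 the counting tool. The deposited matrices hold UMI counts, raw and for each gene in each barcode. The groups came from the sample titles. The members and gene lists were chosen with earlier results of these data known.

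Cells were kept when they had more than 400 genes, fewer than 4000, and mitochondrial UMIs below 10%. The top Scrublet scores (scanpy 1.11.5) were taken as doublets, at 0.8% for every 1000 cells, so that 633, 697 and 198 cells left. Between the vehicle libraries the chi-square per degree of freedom was 2.51 over 13304 genes of germ cells, and they were counted as 2 samples, as titled. Cell classes were rebuilt here from markers and need not match the names of the study. Clusters came from Leiden at a resolution of 0.5 with 20 neighbours.

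UMIs were summed per library and class. Log2 ratios had 0.5 UMI added, and a gene counted as lower or higher when EV 1 was at least 2-fold from the vehicle mean and outside both vehicle libraries, among genes with at least 50 UMIs. Ratio intervals are exact conditional, level intervals exact Poisson and share intervals Wilson, all at 95%. Germ and feeder sums were compared with edgeR 4.0.16 (TMM, quasi-likelihood, Benjamini-Hochberg, threshold 0.05), with DESeq2 1.42.0 as an alternative. The steps were tested on simulated data. Named are the 7 members, the genes of the fixed lists and, for Stra8, Kit, Dmrt1 and Kitl, the 5 genes most like each among genes with at least 100 UMIs in the cells compared.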

Additional observations from a re-analysis of the deposited data

How the results depend on the processing

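Of 280 values recomputed under another setting, 263 stayed within their limits. These were the counting interval, 1.5 times for counts of genes, or the same side of the threshold. For the share of a member by another member the limit was the SD between the vehicle libraries. None of the members' log2 ratios in germ cells left its interval. Leaving out vehicle 1 or vehicle 2 in turn moved none of the 62 values so tried beyond these limits, which are wide for shares of few cells. For the share of a member by another member this outcome was fixed, because leaving out a library cannot move the mean by more than that SD. For germ against feeder differences only a change of sign would have counted. For these values the outcome is thus no check. The share of cells with Kit by Stra8, 2.63 points, became 1.52 without vehicle 2 and 3.73 without vehicle 1, and that of Stra8 by Kit, 9.0 points, became 5.12 and 12.9. With the stricter class the log2 ratios in germ cells stayed within their intervals, but that of Stra8 was -0.67, no longer 2-fold, and that of Kit turned from -0.20 to 0.33. Among the list genes called in germ cells, Gfra1, Id4, Eomes, Cyp26a1, Dmrtb1, Prdm9, Lyn and Mmp9 also fell short of 2-fold under at least 1 other setting. So did the cell type markers Col1a1, Sox9, Myh11 and Kdr. Col1a1, a gene of the class rule, turned from a log2 ratio of 1.11 to -1.19 with the stricter class. For germ against feeder cells, the fit with the replicate block (library) called 7067 genes higher in germ and 7092 higher in feeder cells, against 7032 and 7031 without it, and changed no call of a member, there or between G2/M and S. No paired analysis was possible between EV and vehicle because the groups with counts share only 1 replicate number. Over all kept cells the log2 ratio of Kitl, 0.81, became 1.00 with TMM factors, 1.01 with DESeq2 size factors and 1.17 as a mean over cells, which moved that of Dmrt1 to -3.62. Compared with the thinned difference in the share of germ cells with a UMI, EV 1 minus the vehicle mean, of -5.36 percentage points, Stra8 gave 0.953 at 2000 UMIs per cell, with 26 cells in EV 1, and -17.5 without thinning. Without thinning, which mixes in depth, the difference was -3.16 for Kit, -4.56 for Sohlh2 and -23.2 for Dmrt1. The share of cells with Kit among cells with Stra8 minus that among cells without was 5.58 points without thinning against 2.63, that of Stra8 by Kit 15.1 against 9.0, and that of Dmrt1 by Stra8 11.8 against 4.71, or 4.10 without doublet removal and 4.2 with class from clusters. In germ cells the count of genes at least 2-fold lower was 927, but 1665 as a mean over cells and 385 with 1 UMI added, so that lower genes made up 37.7%, 57.0% and 16.3% of those called. Over all kept cells the higher genes numbered 1332, and 2043 as a mean over cells. In feeder cells lower genes made up 67.0% of those called and 52.5% with TMM factors. With genes at 0 UMIs in EV 1 set to 3 UMIs, the list medians in germ cells were -0.42 for undifferentiated, -0.33 for differentiation and -0.35 for retinoid genes. The depth of germ cells in EV 1, 325012 UMIs in all, limits the germ cell values of that library.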
